A study of Mus musculus with 3 samples.

Results

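Kruppel-like factors are transcription factors that bind GC-rich DNA and CACCC elements through zinc fingers at their carboxyl end. The report covers 10 of them, Klf2, Klf3, Klf4, Klf5, Klf6, Klf7, Klf9, Klf11, Klf13 and Klf15, chosen as every probe set whose platform annotation carries exactly 1 of these symbols. All 10 were found, each by 1 probe set, among the 19938 genes measured. RNA was measured on 3 single-colour mouse arrays, 1 per sample. DiBA is a cultured sample in a series on directly converted brown adipocytes, and its labels give neither the starting cell nor the factors used. BA is labelled with brown adipose tissue as its source, while its description and culture conditions are those of cultured cells, so the labels do not settle which was used. The third sample is labelled mouse fibroblasts and described as cultured. The labels shared by all 3 give culture at 37 °C in 5% CO2 and no treatment, and no strain, genotype, sex or age is given.

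The family falls into groups by the proteins its members recruit. Klf2, Klf4, Klf5, Klf6 and Klf7 belong with Klf1 to a group that mainly activates transcription. Klf3, with Klf8 and Klf12, recruits the corepressor CtBP. Klf9, Klf11 and Klf13, with Klf10, Klf14 and Klf16, recruit the corepressor Sin3a, and Klf15 stands outside these groups. Several members are known to act in fat cell formation: in mouse preadipocytes Klf4, Klf5, Klf9 and Klf15 promote it, and Klf2 and Klf3 restrain it. These roles are background and were not measured here.

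The deposited values are intensities on a linear scale, in arbitrary units. Array medians were 71.5 for DiBA, 67.7 for BA and 67.8 for fibroblasts. Differences are between values of log2(intensity + 1), and folds are on the same scale. A gene counted as higher or lower at 2-fold or more, where the brighter array of the pair reached 69.2, the median of all probe sets on the 3 arrays. With 1 array per group there is no spread between replicates, no p-value and no replicate check, and each value describes these arrays only. All 7 brown adipocyte markers and all 7 measured adipocyte markers passed 2-fold upward in DiBA and in BA, against fibroblasts. Of all genes tested, 14.7% did so in DiBA and 16.3% in BA. The fibroblast intensities of the brown markers all lay under 69.2. With them raised to 69.2, Dio2 fell to 0.63 in both, and Elovl3 to 0.15 in DiBA and 0.52 in BA. These values are under 2-fold, and the other brown markers stayed past it. Of 8 fibroblast markers, 5 were lower in DiBA and 6 in BA, against fibroblasts, where 13.2% and 16.4% of all genes were. Dcn, which encodes the matrix protein decorin and is named after its values were seen, was higher in both.

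All 10 factors had an intensity above 69.2 on all 3 arrays, so none passed the level filter through 1 bright array alone. In DiBA against fibroblasts, 1 of the 10 was higher by 2-fold or more, where 14.7% of all genes tested were, and 3 were lower by as much, where 13.2% of genes were. The higher gene was Klf15, and the lower genes were Klf5, Klf6 and Klf7. The same 4 genes passed 2-fold in BA against fibroblasts, where 16.3% of genes were higher and 16.4% lower. Both comparisons use the same fibroblast array. Between DiBA and BA, 0 of the 10 reached 2-fold in either direction, where 1.75% of genes were higher and 0% lower in DiBA. The median difference over the 10 factors was -0.41 for DiBA minus fibroblasts, -0.43 for BA minus fibroblasts and 0.00 for DiBA minus BA, and over all genes it was 0.00 in each of the 3. The share of higher members thus lay near that of all genes, and the larger share of lower members rests on 3 genes.

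A lower threshold of 1.5-fold added Klf3 and Klf4 to the lower genes and Klf9 to the higher genes of DiBA. That made 5 lower, where 23.6% of genes were, and 2 higher, where 21.4% were. In BA against fibroblasts, the same 5 were lower, where 26.2% of genes were, and 3 were higher, Klf9, Klf11 and Klf15, where 22.9% were. Between DiBA and BA, Klf5 alone passed 1.5-fold and was higher in DiBA, as 4.12% of genes were, and 0 factors were lower, as 0.0993% of genes were.

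**Figure D1:**
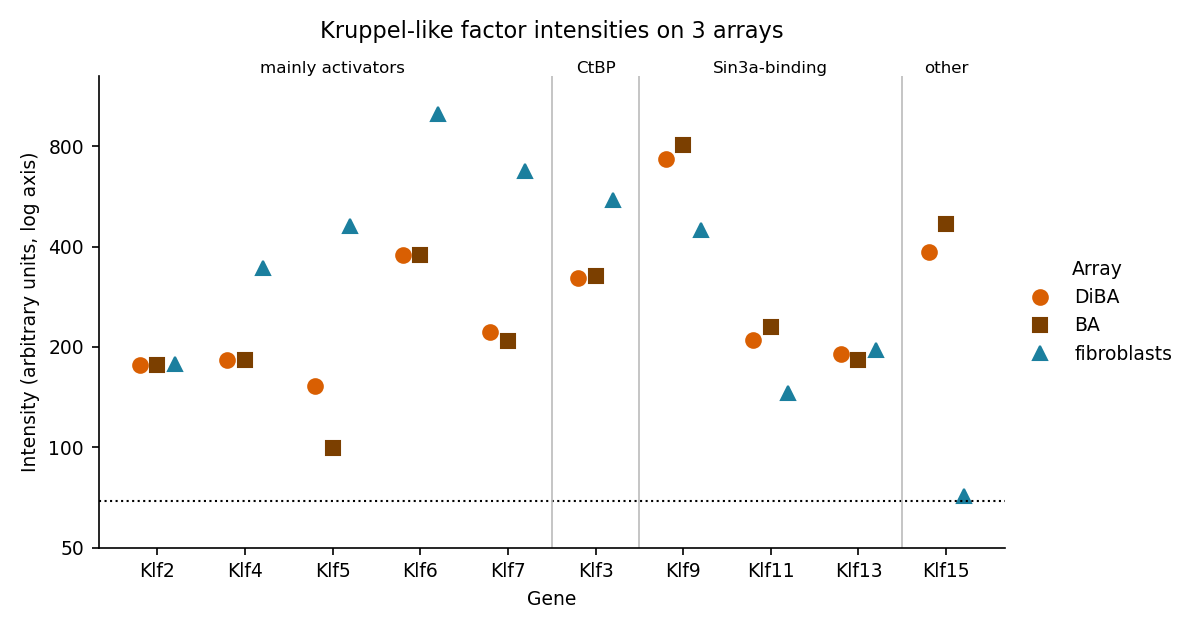
Intensity of each Kruppel-like factor (y axis, arbitrary units, log scale) on the DiBA, BA and fibroblast arrays, 1 array each, so there are no error bars. The dotted line is the median of all probe sets, 69.2. Klf15 lies above the fibroblast array in DiBA and BA, and Klf5, Klf6 and Klf7 lie below it. The widest gap between DiBA and BA is that of Klf5, at 152 and 99.6.

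Klf15 had the largest difference from fibroblasts of the 10 factors. It is known for inducing the insulin-responsive glucose transporter Glut4 in mouse fat and muscle cells and for promoting amino acid breakdown. Its intensity was 386 in DiBA, 467 in BA and 71.5 in fibroblasts. The fibroblast value lay just above the median of all probe sets, and the other arrays lay far above it. In DiBA the fold over fibroblasts was 5.34, a difference of 2.42 that 4.35% of tested genes exceeded. In BA it was 6.46-fold higher than in fibroblasts, at 2.69, which 3.94% of tested genes exceeded. Between DiBA and BA it differed by -0.27, and 5.34% of tested genes had a lower difference, so Klf15 stood near the low edge of that narrow distribution without reaching 2-fold.

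Klf7, Klf5 and Klf6 were the lower genes. Klf7, an activator studied mainly in neurons, had an intensity of 222 in DiBA, 209 in BA and 672 in fibroblasts. It was 3.02-fold lower in DiBA and 3.21-fold lower in BA than in fibroblasts, at -1.60 and -1.68. Klf6, a growth-restraining factor found in many tissues, had 378 in DiBA, 376 in BA and 998 in fibroblasts. DiBA and BA were nearly level for Klf6, with a difference of 0.01, and the folds below fibroblasts were 2.64 for DiBA and 2.65 for BA. For Klf7, 5.74% of tested genes had a lower difference in DiBA minus fibroblasts, and for Klf6 7.46%.

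Klf5 was, of the 10 factors, the one that differed most between DiBA and BA. It acts downstream of C/EBP beta and C/EBP delta in early mouse fat cell differentiation and also marks proliferating epithelium. Its intensity was 152 in DiBA, 99.6 in BA and 462 in fibroblasts, so the 3 arrays were spread apart, with BA lowest. Klf5 was 3.02-fold lower in DiBA than in fibroblasts, at -1.59, and 4.60-fold lower in BA, at -2.20. The DiBA minus BA difference was 0.61, or 1.53-fold, and 3.86% of tested genes exceeded it. Of 6 epithelial markers, 4 lay under 69.2 on all 3 arrays. Against fibroblasts, 0 of them were higher by 2-fold, where 14.7% of all genes were in DiBA and 16.3% in BA. Krt8, named after its values were seen, was the 1 lower in DiBA against fibroblasts, where 13.2% of all genes were. It was at -1.02 with its DiBA intensity of 59.2 raised to 69.2. In BA 0 were lower, where 16.4% of genes were. The part of the epithelial markers in the Klf5 values was not tested.

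Klf4 and Klf2 complete the activators. Klf4, a pluripotency and endothelial factor that activates Cebpb early in fat cell differentiation, had an intensity of 183 in DiBA, 183 in BA and 346 in fibroblasts. It was 1.88-fold lower than in fibroblasts in each, a difference of -0.91 that stayed under the 2-fold threshold. Klf2, which maintains endothelial and T cell quiescence and represses Pparg in mouse preadipocytes, had 176 in DiBA, 176 in BA and 178 in fibroblasts. Its difference from fibroblasts was -0.01 in both. DiBA and BA carried exactly the same deposited intensity for Klf2 and for Klf4. Such ties were common, at 26.2% of genes tested between these arrays, and how they arose is not known here, so a difference of 0.00 cannot be read as a measure of how closely these samples match.

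Klf3, the corepressor-recruiting member that represses Cebpa in mouse preadipocytes, had an intensity of 321 in DiBA, 326 in BA and 552 in fibroblasts. It was lower than in fibroblasts by 1.72-fold in DiBA and 1.69-fold in BA, at -0.78 and -0.75. Neither value reached 2-fold.

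The Sin3a-binding members gave no difference of 2-fold. Klf9, a target of glucocorticoid and thyroid hormone that promotes Pparg expression in mouse preadipocytes, had an intensity of 734 in DiBA, 806 in BA and 449 in fibroblasts. It was 1.63-fold higher in DiBA and 1.79-fold higher in BA than in fibroblasts, at 0.71 and 0.84. Klf11, which takes part in the browning of human fat cells, had 209 in DiBA, 229 in BA and 146 in fibroblasts, with folds of 1.43 and 1.57 above fibroblasts. Klf13, a factor known from lymphocytes and heart, had 191 in DiBA, 182 in BA and 196 in fibroblasts. Its differences from fibroblasts were -0.04 for DiBA and -0.10 for BA, the smallest of the 10 factors after Klf2.

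**Figure D2:**
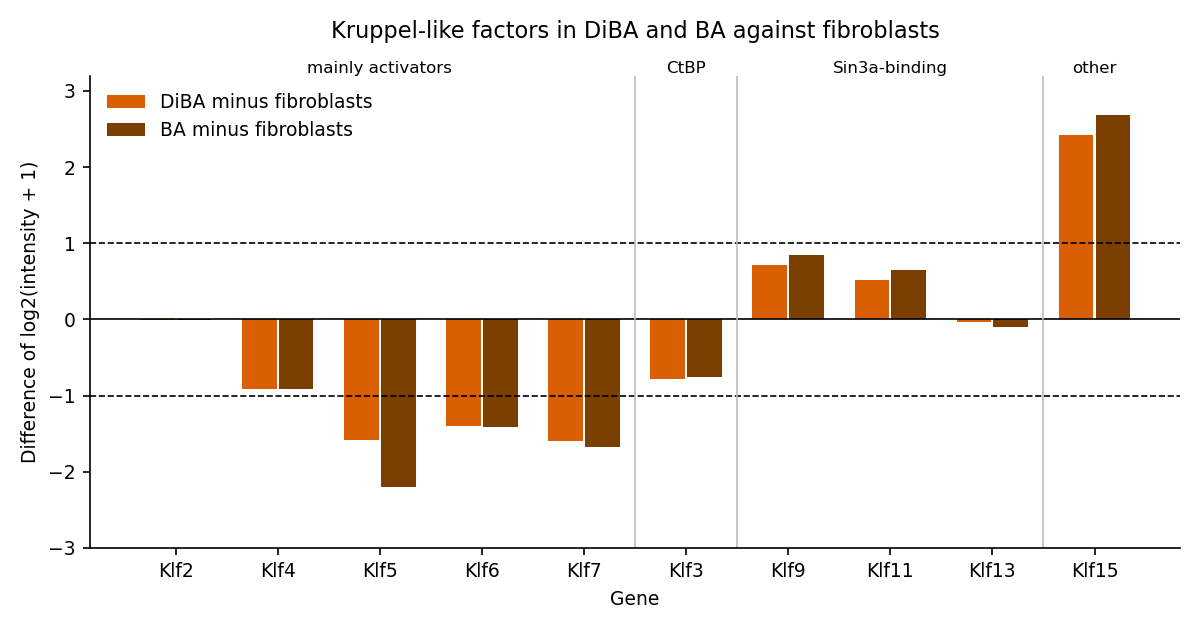
Difference of log2(intensity + 1) from the fibroblast array (y axis) for each Kruppel-like factor, in DiBA and in BA, 1 array each. Dashed lines mark 2-fold. Klf15 lies above the upper line at 2.42 and 2.69, Klf5, Klf6 and Klf7 lie below the lower line, and Klf5 has the longest gap between its bars, at -1.59 for DiBA and -2.20 for BA.

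The order of the 3 arrays was described for each factor. In 8 of the 10 factors all 3 values differed, and in 7 of these DiBA lay between BA and fibroblasts. Klf3 was the exception, with DiBA lowest by a difference of 0.02 from BA. Of all genes passing the level filter with 3 different values, 80.5% had DiBA between the other arrays, so this order is common on these arrays. Neighbouring levels could not be told apart by any replicate spread. The gaps between DiBA and BA ran from -0.27 for Klf15 to 0.61 for Klf5, and the central 90% of tested genes lay between -0.28 and 0.50.

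**Figure D3:**
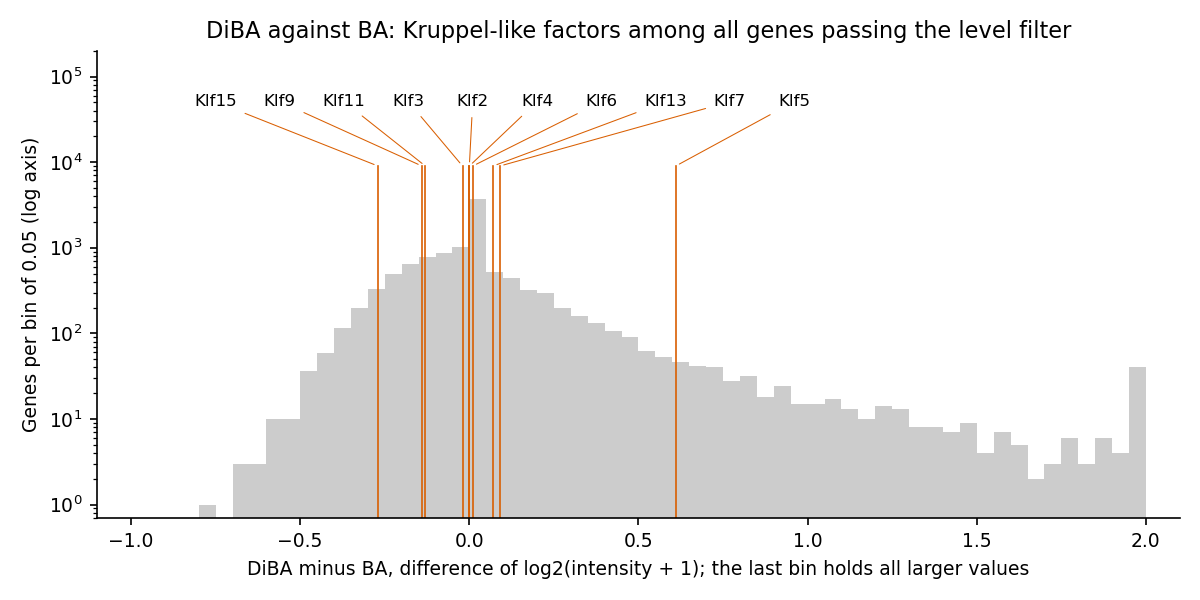
DiBA minus BA difference of log2(intensity + 1) (x axis) for all genes passing the level filter (grey bars, number of genes per bin on a log axis) with the 10 Kruppel-like factors as lines. Of the factors, 9 lie between -0.27 and 0.09, and Klf5 lies apart at 0.61.

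Promoter windows were examined for the sequence features that the factors share. RefSeq windows of assembly GRCm38.p6 ran from 250 bases before to 50 after the transcription start. Klf5, which was among the lower factors, had no window and is absent from the motif counts. Windows were matched by symbol for 9 of the 10 factors. Those of Klf15 and Klf9, the highest against fibroblasts, and of Klf6 and Klf7, among the lowest, are printed to show how GC-rich sequence is arranged in factors that differed in opposite directions. They lie at chr6:90462326-90462625 on the plus strand for Klf15, chr19:23140976-23141275 on the plus strand for Klf9, chr13:5861239-5861538 on the plus strand for Klf6 and chr1:64121340-64121639 on the minus strand for Klf7. Capitals mark matches on either strand to CACCC, the element the family binds, and to GGGCGG, the GC box that Sp factors also bind, and a few of these matches overlap each other in other members.
Klf15: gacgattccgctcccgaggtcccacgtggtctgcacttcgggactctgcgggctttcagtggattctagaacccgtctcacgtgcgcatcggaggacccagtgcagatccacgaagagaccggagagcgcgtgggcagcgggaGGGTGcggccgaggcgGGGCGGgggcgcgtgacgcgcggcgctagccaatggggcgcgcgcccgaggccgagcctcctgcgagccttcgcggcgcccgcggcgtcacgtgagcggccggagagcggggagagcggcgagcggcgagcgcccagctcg
Klf9: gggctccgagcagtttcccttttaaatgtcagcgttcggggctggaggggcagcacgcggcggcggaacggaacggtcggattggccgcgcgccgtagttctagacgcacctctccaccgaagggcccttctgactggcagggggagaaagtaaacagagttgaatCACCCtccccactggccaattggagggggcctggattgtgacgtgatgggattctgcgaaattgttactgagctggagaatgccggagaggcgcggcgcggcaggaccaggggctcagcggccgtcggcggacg
Klf6: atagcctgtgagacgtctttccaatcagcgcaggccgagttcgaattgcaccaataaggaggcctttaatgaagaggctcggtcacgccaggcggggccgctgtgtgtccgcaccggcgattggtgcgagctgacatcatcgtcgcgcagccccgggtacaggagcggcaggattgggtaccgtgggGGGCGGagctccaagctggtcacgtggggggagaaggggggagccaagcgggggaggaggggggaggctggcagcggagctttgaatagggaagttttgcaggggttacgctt
Klf7: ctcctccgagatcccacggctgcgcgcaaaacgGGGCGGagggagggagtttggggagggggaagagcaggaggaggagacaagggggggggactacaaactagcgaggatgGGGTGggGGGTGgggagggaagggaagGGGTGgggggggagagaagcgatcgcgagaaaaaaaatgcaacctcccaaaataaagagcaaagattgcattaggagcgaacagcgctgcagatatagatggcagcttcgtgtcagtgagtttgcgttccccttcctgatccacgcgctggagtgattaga

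The motif search covered both strands. A GGGCGG match was present in 8 of the 9 windows, where 35.7% of all 32851 promoter windows of the same length held one, and a CACCC match in 6 of 9, where 57.5% held one. Klf15 had 1 CACCC and 1 GGGCGG match, the farther one starting at position -107 from the start. Klf7 had 3 CACCC matches and 1 GGGCGG match, Klf6 had 0 and 1, and Klf9 had 1 and 0. CCAAT was found in 5 of 9 windows, where 37.4% of all windows held it, with 4 matches in Klf6, 3 in Klf9, 1 in Klf15 and 0 in Klf7. TATAAA, held by 13.6% of windows, and TGACGTCA, held by 1.79%, were found in 0 of 9, and TGANTCA, held by 7.81%, in Klf9, where it overlaps the CACCC match. The windows were rich in G and C, from 58.3% in Klf7 to 77.7% in Klf11, against a median of 52.7% over all windows, which was not corrected for. The matches describe letters in these windows and do not show binding, and in the 4 printed windows neither kind of match set the higher factors apart from the lower ones.

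**Figure D4:**
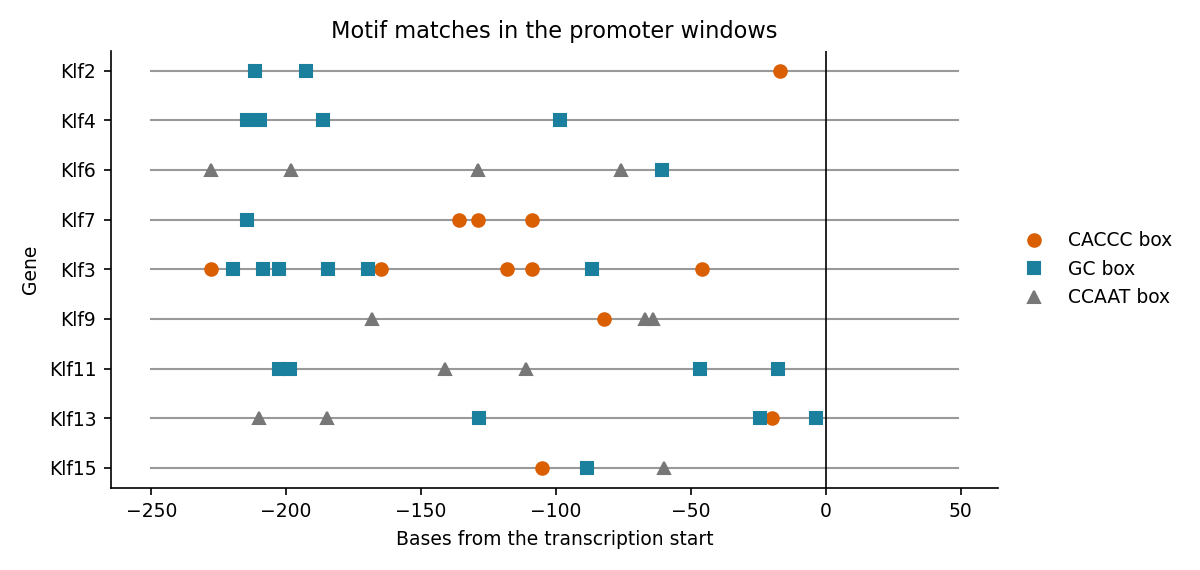
Positions of CACCC, GC box and CCAAT matches (symbols) in the promoter windows of 9 Kruppel-like factors (rows), in bases from the transcription start (x axis, 0 is the first transcribed base). GC box matches occur in 8 rows, Klf9 being the row without one, and CCAAT matches in Klf6, Klf9, Klf11, Klf13 and Klf15.

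The remaining 7 Kruppel-like factors measured did not reach 2-fold in DiBA against fibroblasts. Klf12, a CtBP-recruiting repressor, had an intensity of 89.8 in DiBA, 49.9 in BA and 174 in fibroblasts. The BA value lies under the median of all probe sets. With such values raised to 69.2, the difference from fibroblasts was -0.94 for DiBA and -1.32 for BA, and DiBA minus BA was 0.37, against 0.84 as deposited. Whether Klf12 or Klf5, at 0.61, had the wider gap between DiBA and BA therefore depends on that floor. Klf10, Klf14 and Klf16 differed from fibroblasts by -0.09 to 0.30, and Klf1, Klf8 and Klf17 stayed under 69.2 on all 3 arrays. Of the 17 factors, 14 passed the level filter in DiBA and in BA against fibroblasts. In DiBA, 1 was higher and 3 lower than in fibroblasts, where 14.7% and 13.2% of all genes tested were. In BA, 1 was higher and 4 lower than in fibroblasts, where 16.3% and 16.4% of genes were. Of 8 Sp factors measured, which share the zinc finger domain, 0 reached 2-fold in any comparison and 4 were under 69.2 on all 3 arrays. Several of the Sp factors carried exactly the same intensity on all 3 arrays. Such ties with fibroblasts held for 14% of genes tested in DiBA and 12.8% in BA. How they arose is not known here, so they cannot be read as stable expression.

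Among 13 measured cofactors and ubiquitin ligases of the family, 1 was higher by 2-fold and 0 lower in DiBA against fibroblasts. Of all genes tested, 14.7% were higher and 13.2% lower. In BA against fibroblasts, 1 cofactor was higher and 1 lower, where 16.3% and 16.4% of genes were. The cofactor medians were -0.22 for DiBA and -0.33 for BA. Kat2b, a histone acetyltransferase, had an intensity of 185 in DiBA, 204 in BA and 68.7 in fibroblasts. With intensities under 69.2 raised to it, its differences from fibroblasts were 1.41 for DiBA and 1.55 for BA. Ctbp2, a corepressor recruited by Klf3, had 268 in DiBA, 258 in BA and 529 in fibroblasts, which is 1.97-fold lower in DiBA and 2.05-fold lower in BA. Sin3a carried the same intensity, 285, on all 3 arrays, a tie of unknown origin that cannot be read as stable expression.

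Genes described downstream of the family were set beside it. Of 10 metabolic genes described downstream of Klf15, 8 were higher by 2-fold and 0 lower in DiBA against fibroblasts, with a median of 2.68. Of all genes tested, 14.7% were higher and 13.2% lower. In BA against fibroblasts 8 were higher and 0 lower, where 16.3% and 16.4% of genes were, with a median of 2.87. The other 2, Tat and Aass, lay under 69.2 on all 3 arrays. Slc2a4, which encodes Glut4, had an intensity of 1934 in DiBA, 2227 in BA and 112 in fibroblasts, and was 17.1-fold and 19.7-fold higher. Acss1, a mitochondrial acetyl-CoA synthetase, had 1377 in DiBA, 1634 in BA and 48.2 in fibroblasts. Pck1, an enzyme of glycerol and glucose synthesis, had 4129 in DiBA, 4738 in BA and 45.9 in fibroblasts. The fibroblast values of Acss1 and Pck1 lay under 69.2, so no exact fold is given. With those values raised to 69.2, DiBA minus fibroblasts was 4.30 for Acss1 and 5.88 for Pck1. These genes are also adipocyte genes, and whether Klf15 bears on them was not tested.

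Of 16 adipogenic transcription factors, 8 were higher by 2-fold and 1 lower in DiBA against fibroblasts, where 14.7% and 13.2% of genes were, with a median of 1.09. Against fibroblasts, BA had 9 higher and 1 lower, where 16.3% and 16.4% of genes were, and a median of 1.09. The lower gene in both, Gata3, is named after its values were seen. With intensities under 69.2 raised to it, Gata3 was at -0.78 in both, short of 2-fold. Between DiBA and BA, 2 of the 16 were higher in DiBA, Prdm16 at 2.28 and Cebpb at 1.27, and 0 lower, where 1.75% and 0% of genes were. Cebpa, a gene that Klf3 represses, had an intensity of 1548 in DiBA, 1818 in BA and 82.8 in fibroblasts. Pparg, the nuclear receptor that drives fat cell differentiation, had 2969 in DiBA, 3196 in BA and 115 in fibroblasts. Both were far above fibroblasts on both arrays. The part of the Kruppel-like factors in these levels was not tested.

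**Figure D5:**
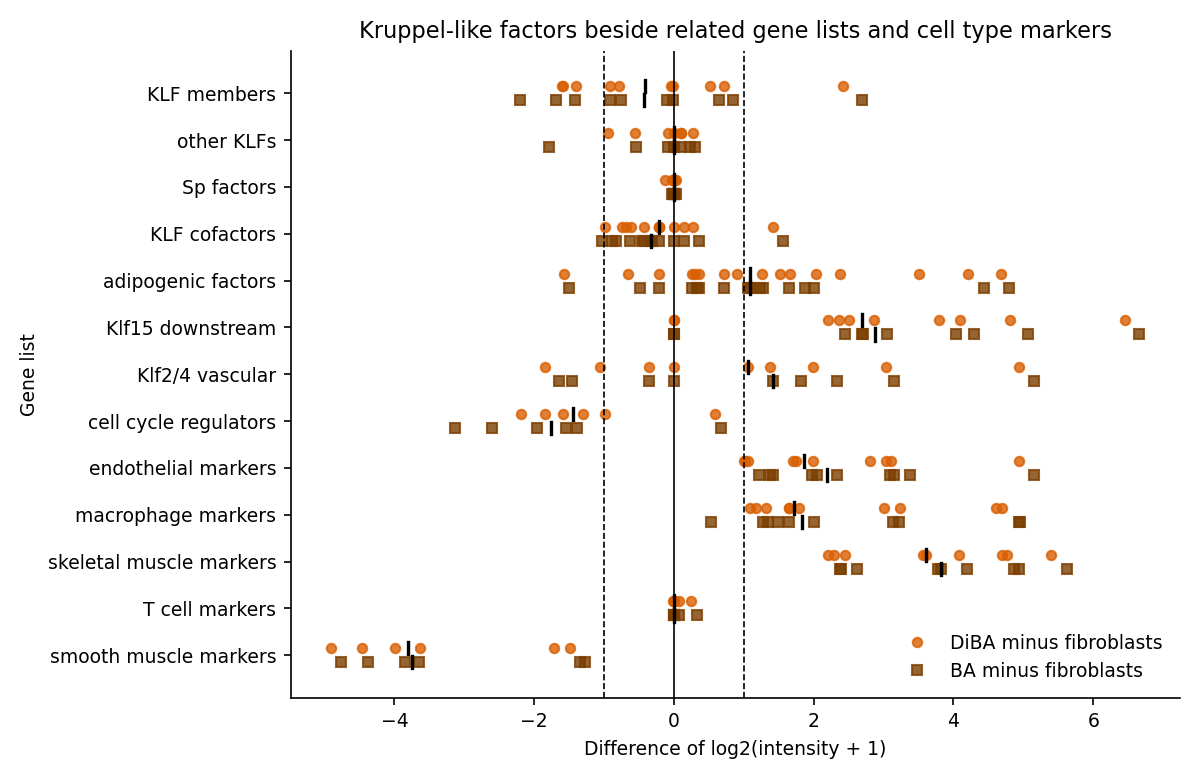
Difference of log2(intensity + 1) from the fibroblast array (x axis) for each gene of 13 lists (rows), in DiBA and in BA, with black ticks at each list's median and dashed lines at 2-fold. The Kruppel-like factors spread to both sides with medians of -0.41 and -0.43, and endothelial, macrophage and skeletal muscle markers lie to the right. Sp factors lie near 0, several of them through exact ties of unknown origin.

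Several members are also expressed by other cell types, whose markers differed on the same arrays. All 10 endothelial markers were higher by 2-fold or more in DiBA and in BA than in fibroblasts, where 14.7% and 16.3% of all genes were. Only 3 of them lay above 69.2 on all 3 arrays. With lower intensities raised to 69.2, Robo4 fell to 0.49 in DiBA and 0.69 in BA, and Vwf to 0.81 in DiBA, all under 2-fold. The other markers stayed past 2-fold, as did Vwf in BA, at 1.17. The summed intensity of the 10 markers was 3439 in DiBA, 4123 in BA and 647 in fibroblasts. Of 9 vascular genes described downstream of Klf2 and Klf4, 5 were higher and 2 lower in each, with medians of 1.06 for DiBA, where 14.7% and 13.2% of all genes were higher and lower, and 1.42 for BA, where 16.3% and 16.4% were. Of the 5 higher genes, Cdh5, Pecam1, Tek and Kdr are also among the 10 endothelial markers, so the counts of the lists overlap. Cdh5, an endothelial junction gene on both lists, had an intensity of 1027 in DiBA, 1188 in BA and 32.6 in fibroblasts. Pecam1, also on both lists, had 364 in DiBA, 393 in BA and 43.3 in fibroblasts. The vascular list was not divided by the direction in which Klf2 or Klf4 is described to act. Its counts and medians therefore do not show whether a gene went with that direction. The 2 lower genes, named after their values were seen, were Edn1 and Vcam1. Vcam1 was at -1.06 in DiBA, and Edn1 at -1.21 with its DiBA intensity of 44.3 raised to 69.2. Klf2 showed no such difference, and Klf4 was lower than in fibroblasts by less than 2-fold.

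Against fibroblasts, all 10 macrophage and immune markers were higher by 2-fold in DiBA and 9 of 10 in BA. Of all genes, 14.7% were higher in DiBA and 16.3% in BA. The summed intensities of these markers were 5050 in DiBA, 5189 in BA and 1127 in fibroblasts. With its fibroblast intensity of 36.6 raised to 69.2, Ptprc fell to 0.76 in DiBA and in BA, under 2-fold, and the other calls stayed. All 9 skeletal muscle markers, from a tissue where Klf15 is also known to act, were higher in both, with sums of 12314 in DiBA, 13920 in BA and 1091 in fibroblasts. Of 6 smooth muscle and myofibroblast markers, 6 were lower in both, where 13.2% of all genes were in DiBA and 16.4% in BA. Their sums were 938 in DiBA, 929 in BA and 12632 in fibroblasts. With its DiBA and BA intensities raised to 69.2, Myocd was at -0.54 in both, short of 2-fold, and the others stayed past it. T cell markers, 6 measured, gave 0 genes at 2-fold, with 5 under 69.2 on all 3 arrays. No marker is listed at 0. In such bulk RNA, a change in the share of a cell type and a change of RNA per cell cannot be told apart. The part of these markers in the values of the Kruppel-like factors was not tested.

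Genes with the most similar pattern were found by the Euclidean distance between centred log2 values over the 3 arrays, for the factors with the highest and the lowest difference in DiBA against fibroblasts. Among 11205 candidate genes, the closest to Klf15 were Slc16a7, a monocarboxylate transporter, at 0.006, Afg1l, a mitochondrial ATPase, at 0.015, and Uqcrfs1, a subunit of respiratory complex III, at 0.028. Slc16a7 had an intensity of 533 in DiBA, 649 in BA and 99.3 in fibroblasts. The closest to Klf7 were Manf, a secreted protein of the endoplasmic reticulum, at 0.004, Iqgap3, a cytoskeletal scaffold gene, at 0.015, and Tuft1 at 0.023. Iqgap3 had only 48.2 in DiBA and 45.0 in BA, and Tuft1 38.5 and 35.5. These intensities lie under 69.2, so the closeness of Iqgap3 and Tuft1 to Klf7 rests on dim values. With 3 arrays, close distances are frequent and show only alike values.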

How the data were processed

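The deposited table holds a linear intensity for each probe set on each array. Affymetrix Expression Console was the authors' software, per the submitters' processing notes, and the sources used here give no version and no method of summarization, background correction or normalization. Array quartiles lay close together, and no further scaling was applied. Groups came from the sample titles, with 1 array each, so the number of arrays limits precision.

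Of 28943 probe sets, 21789 had 1 gene symbol in the platform table, 1621 had several, and 5533 were not listed. Only those with 1 symbol were used, and log2 values of a gene's probe sets were averaged. All 10 members matched RefSeq symbols of GRCm38.p6 through their gene identifiers. Values were analysed as log2(intensity + 1) with Python 3.11.15, numpy 2.4.6 and pandas 2.3.3. Calls needed 2-fold and 69.2 on the brighter array. The calling step was tested on simulated data. The members and all gene lists were chosen with earlier results of these data known. All members are named. Elsewhere genes were named where they passed 2-fold, at most the 3 with the largest difference in DiBA against fibroblasts, or the 2 largest in DiBA against BA. The other Kruppel-like factors, Sin3a, Tat, Aass, Kdr, Dio2, Elovl3, Robo4, Vwf, Ptprc and Myocd were named outside this rule, after their values were seen. Sequences came from RefSeq promoter windows. Alternatives covered the filter, the floor, the normalization, the pseudocount, probe set handling and the threshold.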

Additional observations from a re-analysis of the deposited data

How the results depend on the processing

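Of 180 values, the 10 factors' differences in 3 comparisons under 6 alternatives each, 177 stayed within 0.1 (log2) and on their side of 2-fold. None reversed and none crossed 2-fold. The other 3 moved with a pseudocount of 16: Klf15 to 2.20 in DiBA minus fibroblasts and 2.47 in BA minus fibroblasts, and Klf5 to -2.05 in BA minus fibroblasts, as a larger pseudocount shrinks differences of dim values by construction. The 3 medians stayed within 0.1 under those 6 alternatives. Counts of members past 2-fold were the same without the level filter, with a 75th percentile filter, which 7 factors passed against fibroblasts and 4 between DiBA and BA, and under the 6 alternatives. At 1.5-fold, 2 factors were higher and 5 lower in DiBA than in fibroblasts, where 21.4% and 23.6% of genes were. In BA against fibroblasts 3 were higher and 5 lower, where 22.9% and 26.2% of genes were. Between DiBA and BA 1 was higher, Klf5, where 4.12% of genes were. No paired analysis was possible because each group has 1 array. Signal over background could not be judged, since no detection value was used here.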

Other observations

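Other genes that respond to serum, hormones or growth signals, as several Kruppel-like factors do, were also listed. Of 12 immediate early genes, 0 were at least 2-fold higher and 2 lower in DiBA than in fibroblasts, with a median of -0.46, where 14.7% of all genes were higher and 13.2% lower. In BA against fibroblasts 6 were lower, where 16.4% of genes were, with a median of -0.98. With intensities under 69.2 raised to it, Egr2, named after its values were seen, was at -0.47 in BA, short of 2-fold. The other lower calls stayed. Fosl1, a partner of Jun proteins, had an intensity of 164 in DiBA, 49.2 in BA and 445 in fibroblasts, and its DiBA minus BA difference was 1.23 with the BA value raised to 69.2, the median of all probe sets. Of 6 measured cell cycle regulators described downstream of Klf4, Klf5 and Klf6, 4 were lower in DiBA and 5 in BA than in fibroblasts, where 13.2% and 16.4% of all genes were, with medians of -1.44 and -1.75. Cdk1, the mitotic kinase gene, had 226 in DiBA, 118 in BA and 1037 in fibroblasts. Ccnd2, a cyclin gene of early cell cycle, had 760 in DiBA, 452 in BA and 2746 in fibroblasts. Cdkn2b, a CDK inhibitor gene, had 101 in DiBA, 77.6 in BA and 304 in fibroblasts. Cdkn1b, another inhibitor gene named after its values were seen, was higher by 0.59 in DiBA and 0.68 in BA, under 2-fold. The counts and medians of this list thus pool cyclin and kinase genes with inhibitor genes.

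Of 11 glucocorticoid-responsive genes, a class that also holds Klf9 and Klf15, 2 were at least 2-fold higher and 2 lower in DiBA than in fibroblasts, where 14.7% and 13.2% of all genes were. In BA 3 were higher and 3 lower, where 16.3% and 16.4% of genes were. Pdk4, a kinase that restrains pyruvate oxidation, had 5708 in DiBA, 6144 in BA and 92.1 in fibroblasts. Dusp1, a phosphatase of stress kinases, had 588 in DiBA, 743 in BA and 1555 in fibroblasts. Errfi1, an inhibitor of the EGF receptor, had 1179 in DiBA, 438 in BA and 1455 in fibroblasts, 2.69-fold higher in DiBA than in BA.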
